A study of Mus musculus with 6 samples.

Results

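Immediate early genes are switched on within minutes of a stimulus, without new protein synthesis, and their transcripts are short-lived. The FOS and JUN proteins pair through leucine zippers to form the transcription factor AP-1, EGR1 is a zinc finger factor with its own target sites, and the phosphatase DUSP1 turns off the MAP kinases that start the response. Endothelial cells use this response to growth factors, flow and stress. The 10 genes described are Fos, Fosb, Fosl2, Jun, Junb, Jund, Egr1, Ier2, Atf3 and Dusp1, taken as a named set from the 18193 genes to which the platform annotation gives a probe set with a single symbol. All of their 13 probe sets are given: Fosl2, Jun and Jund have several and the other 7 genes have a single one.

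The samples are lymphatic endothelial cells (LECs), which line lymphatic vessels, on 6 mouse Affymetrix arrays with 1 array per sample. Of these, 3 hold tumor-associated LECs from xenografts of the human cancer line MDA-MB-435, grown under the skin and excised 8 weeks after injection, and 3 hold LECs from healthy mammary skin; the source given for the healthy samples is balb-c/nude mice, a strain that lacks a thymus and so mature T cells. LECs were found on sections by a short stain for LYVE-1 and were cut out by laser capture, and the RNA went through a single round of Ribo-SPIA amplification. No animal is named behind the biological replicates, so the p-values measure the spread between these samples, and neither ages nor pooling is given. The comparison asks how LECs of tumors differ from those of normal skin.

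The label was checked against defining genes. Lyve1, whose protein was the stain, had log2 signals of 9.64, 9.41 and 9.65 in tumor-associated LECs, against 3.21, 7.58 and 6.81 in healthy-skin LECs, where the lowest value, of replicate 1, lay under that array's background of 3.81. Background here is the 95th percentile of the bacterial control probe sets of an array. Prox1, the master factor of lymphatic fate, had 6.26, 6.73 and 7.58 in tumor-associated LECs and 4.73, 5.78 and 7.22 in healthy-skin LECs. Pecam1, a junction protein of all endothelium, had 6.17, 6.57 and 5.66 in tumor-associated LECs and 4.07, 5.78 and 6.21 in healthy-skin LECs. Krt10, a keratin of upper epidermis, had 6.37, 3.94 and 3.92 in tumor-associated LECs and 9.14, 9.55 and 10.28 in healthy-skin LECs, so this keratin was measured on every healthy-skin array well over background. In such captures, fewer cells of a type and less RNA per cell cannot be told apart. The array-to-array correlation over all probe sets lay between 0.783 and 0.864.

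Promoters of 5 members are shown because Fos, Fosb, Atf3 and Dusp1 were lowest on replicate 2 among the healthy-skin arrays, and because Jun was the only gene with a probe set whose groups did not overlap. Of all probe sets, 4.91% were lower in tumor-associated LECs without overlap. Each line holds the 250 bases before the gene's start in RefSeq's table for GRCm38.p6, in the direction of transcription. They lie at chr12:85473640-85473889 on the plus strand for Fos, and on the minus strand at chr7:19310046-19310295 for Fosb, chr1:191183334-191183583 for Atf3, chr17:26508473-26508722 for Dusp1 and chr4:95052223-95052472 for Jun. Capitals mark matches, on either strand, to the motifs given after the sequences.
Fos: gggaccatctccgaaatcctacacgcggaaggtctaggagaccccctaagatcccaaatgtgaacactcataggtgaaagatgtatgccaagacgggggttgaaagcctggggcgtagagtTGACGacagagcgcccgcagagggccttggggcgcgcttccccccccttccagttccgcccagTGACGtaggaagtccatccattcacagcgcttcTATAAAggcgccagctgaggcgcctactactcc
Fosb: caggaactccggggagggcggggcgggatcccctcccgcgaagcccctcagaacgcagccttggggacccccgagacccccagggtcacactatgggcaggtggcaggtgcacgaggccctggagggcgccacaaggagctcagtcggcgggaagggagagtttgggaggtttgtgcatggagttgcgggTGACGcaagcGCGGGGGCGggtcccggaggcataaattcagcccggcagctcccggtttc
Atf3: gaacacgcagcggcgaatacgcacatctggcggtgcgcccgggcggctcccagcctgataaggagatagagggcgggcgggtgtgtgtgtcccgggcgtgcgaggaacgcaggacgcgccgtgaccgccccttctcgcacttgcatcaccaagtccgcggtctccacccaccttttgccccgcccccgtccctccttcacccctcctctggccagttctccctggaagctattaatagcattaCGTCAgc
Dusp1: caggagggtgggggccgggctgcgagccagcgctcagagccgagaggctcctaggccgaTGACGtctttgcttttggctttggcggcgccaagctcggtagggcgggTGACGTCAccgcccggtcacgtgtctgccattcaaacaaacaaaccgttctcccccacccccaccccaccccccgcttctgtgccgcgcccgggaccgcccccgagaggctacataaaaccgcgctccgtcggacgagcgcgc
Jun: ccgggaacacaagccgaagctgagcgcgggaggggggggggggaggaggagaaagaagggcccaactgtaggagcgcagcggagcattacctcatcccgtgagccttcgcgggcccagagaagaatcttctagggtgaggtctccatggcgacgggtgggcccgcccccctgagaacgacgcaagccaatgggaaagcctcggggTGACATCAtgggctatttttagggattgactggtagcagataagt

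The motifs searched on both strands were the CRE half-site TGACG, which is bound by CREB and ATF factors, the octamer TGACNTCA, the AP-1 site TGANTCA, the CArG box of serum response factor, the TATA box TATAAA and the EGR site GCGNGGGCG. Windows of 8 of the 10 genes were searched, those of Egr1 and Ier2 not being analysed here, and all windows had the same 250 bases. The CRE half-site was present in 5 of these 8, namely Fos, Fosb, Junb, Atf3 and Dusp1, against 17.8% of all 32851 windows. The octamer was present in Jun and Dusp1, against 7.49% of all windows. It contains the half-site in Dusp1, where both strands match, while Jun has tgacatca in its place. In Fos the half-site nearest to the start lies at bases -66 to -62 and is followed by the TATA box at -33 to -28. The EGR site was present in Fosb and Fosl2, against 4.70% of all windows, and the TATA box in Fos, against 12.4%. The AP-1 site and the CArG box had no match in the 8 windows, against 6.75% and 1.47% of all windows. Bases further upstream than 250 were not searched, so a site there would not be counted. These matches describe letters and do not show that a factor was bound.

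None of the 13 probe sets passed the threshold between tumor-associated and healthy-skin LECs. In the limma fit over all 45037 probe sets the adjusted p lay between 0.601 and 1 for the members, and 1 of 13 had an unadjusted p under 0.05, a probe set of Jun that was lower in tumor-associated LECs. Over all probe sets 0.00444% passed the adjusted threshold of 0.05 and 6.36% had an unadjusted p under 0.05. On the brightest probe set of each gene, 8 of the 10 genes had a lower mean in tumor-associated LECs, with a median difference of -0.61 (log2). Over all genes 42.2% had a lower mean and the median difference was 0.09. Of these 8, Junb, Egr1 and Dusp1 turned to higher means with array weights. For several genes the spread between arrays of a group was larger than the difference between the groups.

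**Figure D1:**
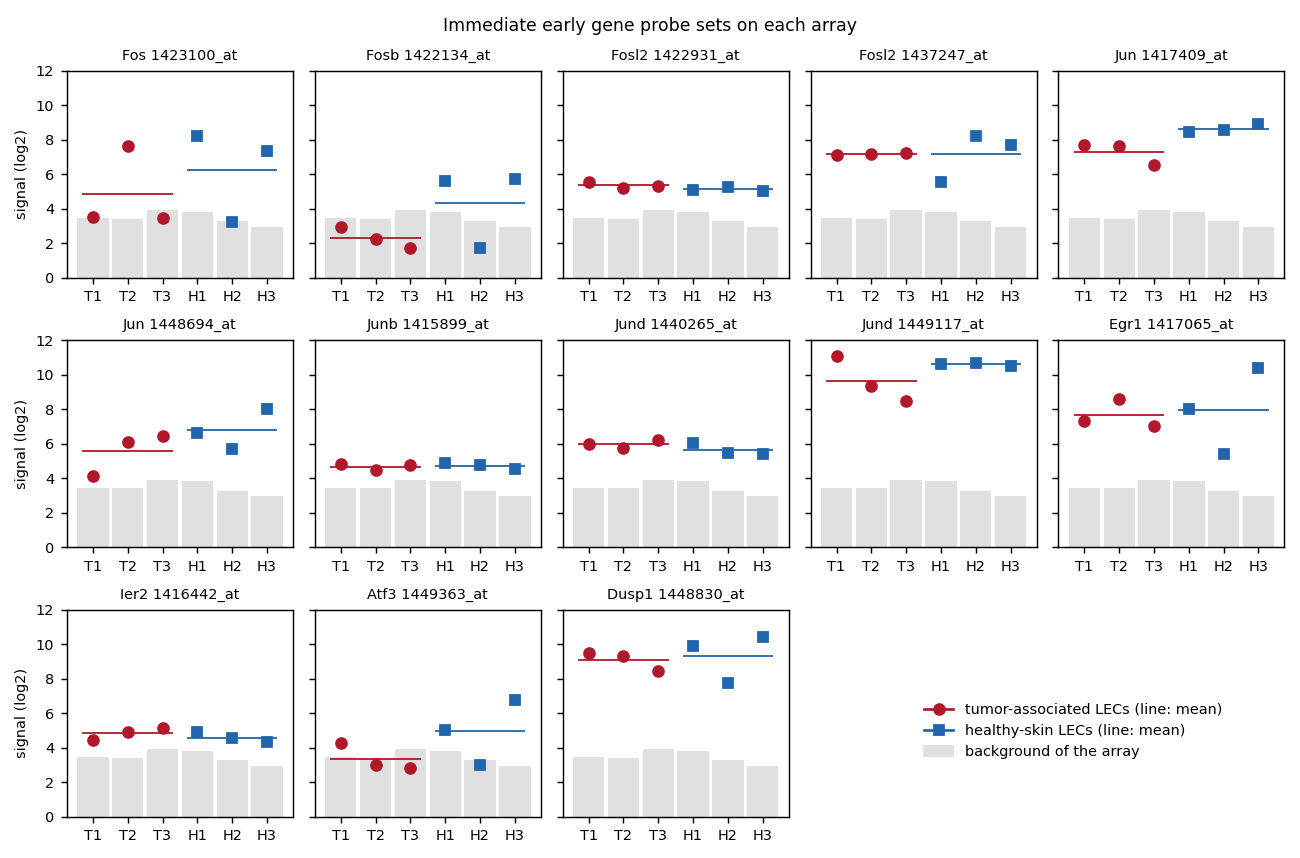
Log2 signal of each of the 13 probe sets on the 6 arrays, with tumor-associated LECs (T1 to T3, circles) left of healthy-skin LECs (H1 to H3, squares). Horizontal lines are group means and grey bars each array's background. Fos is near background on T1, T3 and H2 and lies between 7.35 and 8.22 on T2, H1 and H3.

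Fos encodes the founding partner of JUN in AP-1. Its log2 signal was 3.53, 7.61 and 3.48 in tumor-associated LECs, against 8.22, 3.24 and 7.35 in healthy-skin LECs. The arrays thus fell into a high and a low set that cut across the groups: tumor replicate 2 and healthy replicates 1 and 3 were high, and the other 3 arrays lay between 3.24 and 3.53. On tumor replicate 3 and healthy replicate 2 the value was under the array's background of 3.91 and 3.28, and on tumor replicate 1 it was just above 3.45. The means were 4.87 ± 2.37 in tumor-associated LECs and 6.27 ± 2.66 in healthy-skin LECs (SD, n = 3 each), and the difference of -1.39 (log2) had a 95% interval from -5.18 to 2.39 (limma adjusted p = 0.909). The spread within groups, a pooled SD of 2.52, was higher than that of 99.7% of the probe sets with a mean above background, whose median was 0.62.

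Fosb, a close relative that pairs with the same JUN partners, had 2.94, 2.26 and 1.70 in tumor-associated LECs, against 5.63, 1.71 and 5.70 in healthy-skin LECs. Only healthy replicates 1 and 3 were above background, so the tumor values and that of healthy replicate 2 give only an upper limit. The measured difference was -2.05 (log2) with a 95% interval from -4.60 to 0.50 (limma adjusted p = 0.846). Unlike Fos, it was not high on tumor replicate 2.

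Fosl2 encodes FRA-2, which lacks the transactivation domain of FOS. Its brighter probe set, 1437247_at, had 7.10, 7.17 and 7.22 in tumor-associated LECs and 5.53, 8.23 and 7.70 in healthy-skin LECs. The tumor values were nearly equal, and the healthy-skin values lay on both sides of them, with replicate 1 lowest. The difference was 0.01 (95% interval -1.60 to 1.61, limma adjusted p = 1), and without healthy replicate 1 it was -0.80. The second probe set, 1422931_at, had 5.54, 5.18 and 5.33 in tumor-associated LECs and 5.06, 5.26 and 5.04 in healthy-skin LECs, and did not show the low value of healthy replicate 1.

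Jun, the partner that can also pair with itself, was the only gene with a probe set whose groups did not overlap. Probe set 1417409_at had 7.68, 7.62 and 6.56 in tumor-associated LECs, against 8.47, 8.56 and 8.88 in healthy-skin LECs. Every tumor value lay below every healthy-skin value, as it did for 4.91% of all probe sets. The share without overlap in either direction is larger and is not given here. That 1 of the 13 probe sets had no overlap is thus only a description. The means were 7.28 ± 0.63 in tumor-associated LECs and 8.64 ± 0.22 in healthy-skin LECs (SD, n = 3 each). The difference was -1.36 with a standard error of 0.38, which is 0.39 times the linear signal of healthy skin (limma unadjusted p = 0.00957, adjusted p = 0.601).

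The other Jun probe set, 1448694_at, had 4.12, 6.09 and 6.44 in tumor-associated LECs and 6.62, 5.70 and 8.00 in healthy-skin LECs. Here the groups overlapped, since healthy replicate 2 was below tumor replicates 2 and 3. The difference of -1.23 had the same sign (95% interval -3.11 to 0.65, limma adjusted p = 0.868). Both probe sets are annotated to NM_010591, yet the order of the arrays within a group differed between them, and tumor replicate 1 was the highest of its group on the first and the lowest on the second.

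On the same arrays all 13 measured keratinocyte markers had a lower mean in tumor-associated LECs. The log2 of their summed signal was 8.03 to 11.20 in tumor-associated LECs and 11.84 to 12.27 in healthy-skin LECs, and their part in the Jun difference was not tested. Endothelial markers went the other way, with 9 of 9 lymphatic and 12 of 12 pan-endothelial markers higher in the tumor mean. Their log2 summed signals were 11.35 to 11.57 and 9.91 to 10.15 in tumor-associated LECs, against 9.39 to 10.45 and 8.41 to 8.52 in healthy-skin LECs.

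Junb, which competes with JUN for FOS partners, was nearly level. Its values were 4.83, 4.46 and 4.74 in tumor-associated LECs and 4.87, 4.74 and 4.55 in healthy-skin LECs, a difference of -0.04 with a 95% interval from -0.68 to 0.59 (limma adjusted p = 0.986). The within-group SD of 0.18 was higher than that of only 1.79% of probe sets above background. On the linear scale the interval runs from 0.626 to 1.5 times the healthy-skin signal.

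Jund, the JUN protein of resting cells, had 11.10, 9.36 and 8.50 on probe set 1449117_at in tumor-associated LECs, against 10.62, 10.69 and 10.49 in healthy-skin LECs. The healthy-skin values agree within 0.20, whereas the tumor values span 2.61, with replicate 1 above and replicates 2 and 3 below all healthy-skin arrays. The difference was -0.94 (95% interval -2.45 to 0.57, limma adjusted p = 0.87), and it was -1.67 without tumor replicate 1, -0.37 without tumor replicate 3 and -0.30 as the mean of both probe sets. The dimmer probe set 1440265_at differed by 0.34, with 5.96, 5.73 and 6.24 in tumor-associated LECs and 6.02, 5.46 and 5.42 in healthy-skin LECs. Tumor replicate 3, the lowest on the first, was the highest of all arrays on the second.

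Egr1 had 7.32, 8.60 and 7.02 in tumor-associated LECs, against 8.00, 5.40 and 10.40 in healthy-skin LECs. Both the highest and the lowest value were from healthy skin, 5.0 log2 units apart, and the tumor values lay between them. The difference of -0.29 had a 95% interval from -3.12 to 2.54 (limma adjusted p = 0.98), and without healthy replicate 3 it turned to 0.95. The SD of 2.5 in healthy skin was higher than that of 99.1% of probe sets above background.

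Atf3, a stress-induced factor that often acts as a repressor, had 4.29, 2.98 and 2.81 in tumor-associated LECs and 5.04, 3.01 and 6.78 in healthy-skin LECs. It was above background on 3 arrays, namely tumor replicate 1 and healthy replicates 1 and 3. The difference was -1.58 (95% interval -3.82 to 0.65, limma adjusted p = 0.865), and the values of tumor replicates 2 and 3 and healthy replicate 2 in it were under background.

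Ier2, a small nuclear protein of growth factor responses, had 4.44, 4.93 and 5.12 in tumor-associated LECs and 4.90, 4.55 and 4.31 in healthy-skin LECs. All values lay within 0.81, the groups overlapped, and the difference was 0.24 (95% interval -0.51 to 0.99, limma adjusted p = 0.921). Like Junb it kept to a narrow range on the arrays where Fos, Fosb, Egr1 and Atf3 differed by several log2 units. The means of Ier2 and Junb, 4.71 and 4.70, were low beside a mean background of 3.47. Such a range of weak signals does not show that expression was steady.

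Dusp1, which removes phosphate from p38, JNK and ERK, had 9.51, 9.31 and 8.44 in tumor-associated LECs, against 9.88, 7.75 and 10.39 in healthy-skin LECs. As with Egr1, healthy skin held the highest and the lowest value. The difference was -0.25 (95% interval -1.94 to 1.44, limma adjusted p = 0.969), and without healthy replicate 3 it turned to 0.27.

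**Figure D2:**
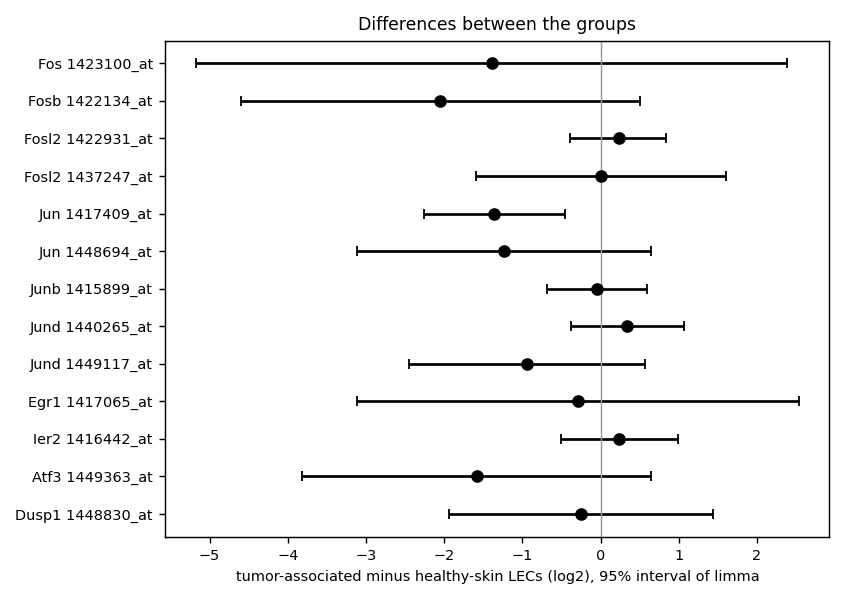
Difference between tumor-associated and healthy-skin LECs for each probe set (log2, points) with the 95% interval of limma (bars). The interval of Jun 1417409_at, from -2.26 to -0.45, is the only one that leaves out 0, and no probe set passed after adjustment.

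On their brightest probe sets, Fos, Fosb, Egr1, Atf3 and Dusp1 were each lower on healthy replicate 2 than on healthy replicates 1 and 3. With values under background raised to the background of their array, the distance to the lower of these 2 arrays was 2.60 for Egr1 and 2.13 for Dusp1 (log2). For Fos, Fosb and Atf3 the value of healthy replicate 2 was itself under background, so their distances of 4.07, 2.35 and 1.76 are lower limits. A distance of 2 or more, a limit set after these values were seen, was thus reached by 4 of the 10 genes and by 64 of all 18193 genes, or 0.352%, and this count is a description. Genes near or under background on healthy replicate 1 or 3 cannot reach it, and such genes are among the 18193. By the same measure, no other array stood apart from its group for more than 1 of the 10 genes: tumor replicate 2 was high for Fos, healthy replicate 1 low for Fosl2 and healthy replicate 3 high for Egr1. On the brightest probe sets of Jun, Junb and Ier2, healthy replicate 2 lay between the other healthy-skin arrays, and for Fosl2 and Jund it was the highest of the 3. On the dimmer Jun probe set it was the lowest, at 5.70 beside 6.62 and 8.00.

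**Figure D3:**
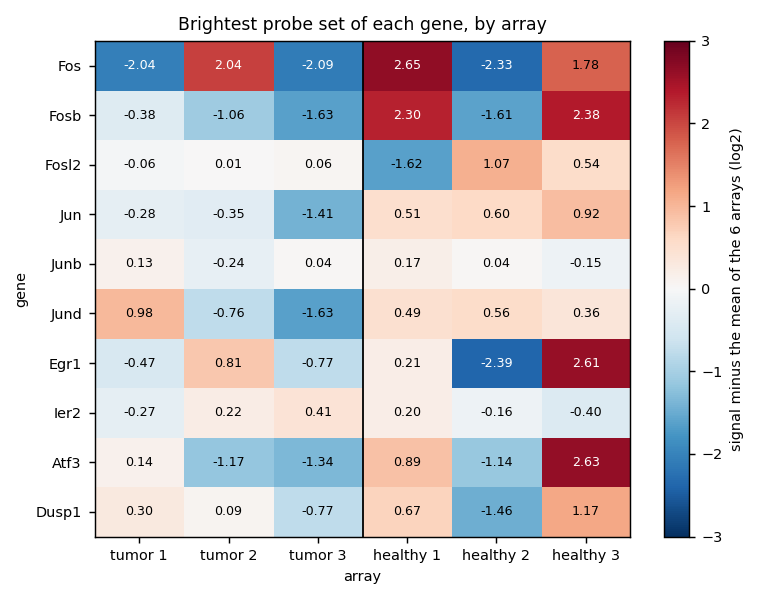
Signal of the brightest probe set of each gene minus its mean over the 6 arrays (log2, colour and printed value), with tumor-associated LECs in the left 3 columns and healthy-skin LECs in the right 3. Fos, Fosb, Egr1, Atf3 and Dusp1 are below their means on healthy replicate 2 and above them on healthy replicates 1 and 3.

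The size of the difference between tumor-associated and healthy-skin LECs moved with the arrays used. With each array left out in turn it ranged from -2.91 to -0.42 (log2) for Fos, from -3.37 to -1.37 for Fosb, from -1.55 to 0.95 for Egr1, from -2.55 to -0.67 for Atf3 and from -1.04 to 0.27 for Dusp1. The lowest value of each range is the one without healthy replicate 2, which follows from that array being the lowest of its group for these genes. The other end was reached without healthy replicate 1 for Fos and without healthy replicate 3 for the other 4 genes. With array weights the difference was -0.62 for Fos, -0.66 for Fosb and -0.39 for Atf3. None of these fits gave any of the 5 genes a limma adjusted p below 0.267.

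Measures of RNA quality and of other cell types are given beside this pattern. The excess of 3' over 5' signal of the Gapdh control probe sets, which grows when RNA is broken or copied short, was 2.15, 4.10 and 2.29 (log2) in tumor-associated LECs and 3.72, 3.23 and 2.77 in healthy-skin LECs (exact two-sided permutation p = 0.6, where 0.1 is the smallest that 3 against 3 arrays can give). For actin it was 0.47, 0.60 and -0.63 in tumor-associated LECs and 0.38, 0.23 and -0.31 in healthy-skin LECs, so healthy replicate 2 was in the middle of its group on both. For the transferrin receptor, whose 3' probe set was under background on all arrays, it was -1.76, 0.05 and -1.22 in tumor-associated LECs and -1.28, -3.61 and -2.71 in healthy-skin LECs. The level of 18 hybridization control probe sets was 13.20, 12.78 and 13.36 in tumor-associated LECs and 13.01, 12.35 and 12.33 in healthy-skin LECs (exact permutation p = 0.2).

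Healthy replicate 2 had the highest summed signal of the 8 measured fibroblast markers, with 13.65, 13.83 and 10.33 (log2) in tumor-associated LECs and 13.09, 14.50 and 13.38 in healthy-skin LECs. Tumor replicate 2, the only tumor array with high Fos, had the highest sum of the 11 macrophage markers, with 10.37, 12.26 and 10.25 in tumor-associated LECs and 10.47, 10.19 and 10.23 in healthy-skin LECs. Pericyte and smooth muscle markers summed to 8.47 to 10.80 in tumor-associated LECs and 9.27 to 9.89 in healthy-skin LECs, adipocyte markers to 7.77 to 9.70 in tumor-associated LECs and 9.37 to 10.66 in healthy-skin LECs, and skeletal muscle markers to 6.19 to 6.84 in tumor-associated LECs and 5.72 to 6.41 in healthy-skin LECs. Only 3 of the 6 measured adipocyte markers and 4 of the 7 skeletal muscle markers had a mean above background. The part of these cells in the immediate early gene values was not tested.

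**Figure D4:**
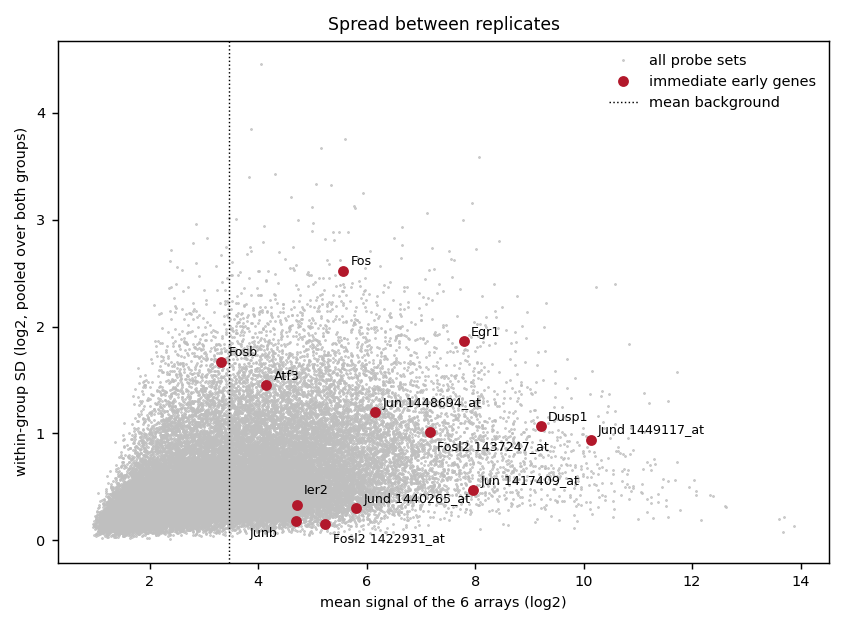
Mean log2 signal over the 6 arrays (horizontal) and within-group SD pooled over both groups (vertical, log2) for all 45037 probe sets (grey) and the 13 of immediate early genes (red). The dotted line is the mean background of 3.47. Fos, at an SD of 2.52, lies near the top edge, while Junb (0.18) and Ier2 (0.33) lie near the bottom.

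The spread within groups divided the members. Of the 13 probe sets 12 had a mean above the mean background of 3.47, Fosb being the exception, and 10 were above background on all 6 arrays. Fos, Egr1 and Atf3 had a within-group SD above the 90th percentile of probe sets over background, at 99.7%, 97.6% and 92.5%. Junb, the dim probe set of Fosl2, that of Jund and Ier2 were at 1.79%, 1.10%, 10.2% and 13.1%. Their mean signals were low, at 4.70, 5.24, 5.81 and 4.71 in that order. For Fosb, Egr1, Atf3 and Dusp1 the SD was 0.62, 0.84, 0.81 and 0.57 in tumor-associated LECs and 2.28, 2.5, 1.89 and 1.40 in healthy-skin LECs, whereas for the brighter Jund probe set it was 1.33 in tumor-associated LECs and 0.10 in healthy-skin LECs. For Fos it was high in both, at 2.37 in tumor-associated LECs and 2.66 in healthy-skin LECs. All tumor values of Fosb, and those of tumor replicates 2 and 3 for Atf3, were under background, which limits what their tumor SDs show. With 3 arrays per group these SDs are themselves imprecise.

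Other genes of the response were read from lists chosen for their function. In each list the brightest probe set stood for a gene, no gene passed the adjusted threshold (0.0055% of all 18193 genes did), and over all genes 3.22% were higher and 4.06% lower in tumor-associated LECs at an unadjusted limma p under 0.05. Of 21 other immediate early transcription regulators, 16 had a higher tumor mean, with a median difference of 0.42, and at the unadjusted threshold 2 were higher and 1 lower. The median of the 10 genes described above was -0.61. The lists were chosen with earlier results of these data known.

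Maff, a small MAF factor without a transactivation domain, had 5.24, 7.61 and 5.93 in tumor-associated LECs, against 4.77, 3.81 and 4.11 in healthy-skin LECs (difference 2.03, limma adjusted p = 0.661). Egr4 differed by 1.12 (limma adjusted p = 0.701). Egr2, of the same family as Egr1, went the other way, with 6.05, 7.12 and 3.62 in tumor-associated LECs and 7.86, 7.40 and 8.26 in healthy-skin LECs (difference -2.25, limma adjusted p = 0.738). On tumor replicate 3 this Egr2 value was under the array's background of 3.91. Its second probe set differed by -1.91, again without overlap, a trait of 4.91% of all probe sets in that direction. The SD of Egr2 in healthy skin was 0.43, where that of Egr1 was 2.5.

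Among 27 other immediate early effectors the median difference was 0.06, with 3 genes higher and 2 lower at the unadjusted threshold. Socs3, the feedback inhibitor of JAK-STAT signalling, had 4.40, 6.39 and 4.70 in tumor-associated LECs, against 2.40, 2.75 and 2.51 in healthy-skin LECs, where all values were under background (difference 2.61, limma adjusted p = 0.441). Its other probe sets, above background on all 6 arrays, differed by 1.27 and 1.03. Ccn1, a matricellular protein, had 6.91, 4.02 and 6.07 in tumor-associated LECs and 8.35, 6.93 and 9.17 in healthy-skin LECs (difference -2.48, limma adjusted p = 0.713). Its other probe sets differed by -2.52, -1.33 and 0.40 and so did not share a direction. Gem, a small GTPase, differed by -1.96 (limma adjusted p = 0.59).

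The 10 other MAP kinase phosphatases had a median difference of 0.28, and 2 were higher at the unadjusted threshold. Dusp6, which acts on ERK, had 6.34, 5.80 and 5.62 in tumor-associated LECs, against 3.66, 4.71 and 5.20 in healthy-skin LECs (difference 1.40, limma adjusted p = 0.685). Dusp5, its nuclear counterpart, differed by 0.83 (limma adjusted p = 0.763) and Dusp2 by 1.05 (limma adjusted p = 0.824).

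Of 22 other bZIP factors that can pair with AP-1 or ATF proteins, 1 was higher and none lower at the unadjusted threshold, with a median of -0.27. That gene was Crem (difference 1.08, limma adjusted p = 0.729), whose other 3 probe sets differed by -0.18, -0.17 and -0.20. Nfe2l2, the factor NRF2 of the oxidative stress response, had 6.64, 3.91 and 3.03 in tumor-associated LECs and 6.33, 6.27 and 6.19 in healthy-skin LECs (difference -1.74, limma adjusted p = 0.836). Like the brighter Jund probe set, this Nfe2l2 probe set was even across healthy skin and spread over the tumor arrays. Its value on tumor replicate 3 was under that array's background of 3.91. The second Nfe2l2 probe set, above background on 0 arrays, differed by 0.61. Cebpb differed by -1.16, with limma adjusted p = 0.848, and its second probe set by -0.22.

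Upstream of the response, 17 kinases and cofactors of serum response factor had a median of -0.03, with 1 higher and 2 lower at the unadjusted threshold. Elk3, an ETS cofactor of serum response factor that is prominent in endothelium, had 7.61, 8.16 and 6.92 in tumor-associated LECs, against 6.55, 5.98 and 6.36 in healthy-skin LECs (difference 1.27, limma adjusted p = 0.658). Its other 3 probe sets differed by 1.86, 1.33 and 3.15, each without overlap between the groups. Of the 12 pan-endothelial markers, 6 were likewise higher in tumor-associated LECs without overlap. The kinase genes Map2k4 and Map2k6 differed by -0.92 and -1.05 (limma adjusted p = 0.642 and 0.591). Map2k6 was above background on 2 arrays, and the other probe set of Map2k4 differed by 0.24.

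Heat shock genes, another stress response, had a median of -0.68 over 11 genes, with 1 lower at the unadjusted threshold. This was the mitochondrial chaperone Hspe1 (difference -1.64 with limma adjusted p = 0.708 on the brighter probe set and 0.37 on the dimmer one). Hsph1, a partner of HSP70, had 7.28, 7.19 and 7.02 in tumor-associated LECs and 7.34, 9.61 and 7.83 in healthy-skin LECs. Its difference was -1.10 on this probe set and 0.25 on the second. Hspa1b, an inducible HSP70 gene named after its values were seen, had 7.91, 7.57 and 2.66 in tumor-associated LECs and 8.21, 10.13 and 7.32 in healthy-skin LECs. On tumor replicate 3 the Hspa1b value was under the array's background of 3.91. Hsph1 and Hspa1b were both highest on healthy replicate 2, as were 5 of the 11 heat shock genes in all, while Hspb1 was lowest there. The share of all genes highest on that array was not counted, so this count is only a description. By a stricter measure, at least 2 log2 units above both other healthy-skin arrays, that array was high for 1.17% of all genes. Hspa1a reached it, and Hspa1b, Hsph1, Dnaja1 and Hspa5 did not. This share therefore cannot be set against the 5 of 11. Hspb1 differed by 0.92, with limma adjusted p = 0.843, and its second probe set by 0.48.

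**Figure D5:**
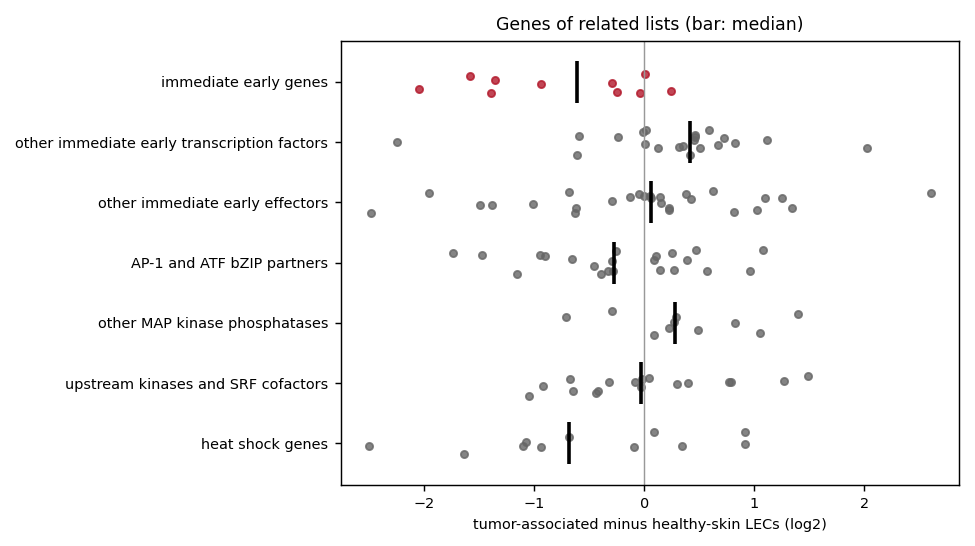
Difference between tumor-associated and healthy-skin LECs (log2) for each gene of the immediate early set (red) and of 6 related lists (grey), with the median of each list as a bar. The medians run from -0.68 for heat shock genes and -0.61 for the immediate early set to 0.42 for the other immediate early transcription regulators.

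The genes outside the set that followed its arrays most closely were ranked by Pearson correlation with the mean of the 10 standardised profiles, over 4448 genes with a mean above background and a range of at least 2 log2 units. The mean profile was -0.04, -0.19 and -0.56 SD units in tumor-associated LECs and 0.47, -0.33 and 0.64 in healthy-skin LECs. The first 5 genes were Sarnp, Icosl, Noc2l, Cdc37 and Nfkbie, with r from 0.962 to 0.984 and Spearman's rho from 0.943 to 1 over the 6 arrays, given as a description of arrays that share a normalization. Nfkbie, an inhibitor of NF-kappaB, had 5.37, 5.42 and 1.92 in tumor-associated LECs and 7.55, 2.92 and 8.05 in healthy-skin LECs. Its values on tumor replicate 3 and healthy replicate 2 were under background. Its second probe set had 3.39, 6.28 and 1.75 in tumor-associated LECs and 3.22, 2.00 and 4.46 in healthy-skin LECs. The likeness did not extend to every probe set of the 5 genes: over their 6 other probe sets r ran from -0.733 for Noc2l to 0.764 for Sarnp. The other Noc2l probe set had its highest value, 5.50, on healthy replicate 2, and that of Cdc37 had 4.33, 4.0 and 3.74 in tumor-associated LECs and 3.67, 3.56 and 3.35 in healthy-skin LECs.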

How the data were processed

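Expression was measured on 6 mouse arrays, 3 of tumor-associated LECs and 3 of LECs from healthy skin. The authors deposited linear intensity values per probe set. The submitters' processing notes name RMA, which corrects background, quantile-normalizes and summarises probes; its software, version and filters were not given in the sources used here. That the scale is linear follows from array maxima of 31520.1 to 33063.3.

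Log2 was taken with no pseudocount. The 64 control probe sets were left out and the other 45037 tested with limma 3.58.1 in R 4.3.3 (lmFit, eBayes, two-sided, prior degrees of freedom 2.82), adjusted by Benjamini-Hochberg over all of them. The procedure was tested on simulated data. The platform annotation gave 34945 probe sets a single symbol, 932 several and 9160 none. No build is named for the arrays, and promoter coordinates are those of RefSeq's table. A gene was represented by its brightest probe set, passing over those ending in _x_at where another exists. Background on an array was taken from 27 bacterial control probe sets (95th percentile).

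The members and lists were chosen with earlier results of these data known. Named were all members, 3 genes with the smallest p of each related list, the 5 most alike genes, and Lyve1, Prox1, Pecam1 and Krt10; Hspa1b was added after its values were seen. Marker lists covered keratinocytes, lymphatic and pan-endothelium, fibroblasts, pericytes and smooth muscle, macrophages, adipocytes and skeletal muscle. Alternatives were leaving out dim probe sets, a second quantile normalization, centring, a pseudocount of 16, a replicate block, other moderation, array weights, each array left out, and the mean of a gene's probe sets.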

Additional observations from a re-analysis of the deposited data

How the results depend on the processing

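The count of immediate early probe sets past the adjusted threshold was 0 of 13 under every alternative run (0 of 12 with the filter on dim probe sets, which left out Fosb), and the lowest adjusted p of any gene's brightest probe set was 0.267, for Fosb without healthy replicate 2. Over all probe sets the count was 2 and became 19 with the filter on dim probe sets, 22 with array weights, 1 with trend and robust moderation, 1 with the unmoderated statistic, 0 after centring on array medians, 0 with a pseudocount of 16 and 0 with the replicate block. It ranged from 0 to 23 when each array was left out in turn, 23 being the count without tumor replicate 2. Of 149 alternative values of the 10 genes, 134 kept their direction, many of them by construction. The filter, the replicate block, the trend and robust moderation and the unmoderated statistic leave the difference itself unchanged. The mean of a gene's probe sets does so too for the 7 genes with a single one. Fosl2 turned to -0.03 after centring, -0.04 with the pseudocount and -0.50 with array weights, and ranged from -0.80 to 0.54 with each array left out. With array weights Junb turned to 0.0096, Egr1 to 0.67 and Dusp1 to 0.60. With each array left out they ranged from -0.13 to 0.06, from -1.55 to 0.95 and from -1.04 to 0.27. The cause of these turns was not tested. Fos, Fosb, Atf3, Jund and Ier2 kept their direction, between -2.91 and -0.42, -3.37 and -0.66, -2.55 and -0.39, -1.67 and -0.30, and 0.09 and 0.43. Jun kept its direction under each alternative, between -1.55 and -0.99, with adjusted p from 0.304 to 0.905. The labels do not say whether same-numbered samples are paired. Deviations from the group means correlated by 0.044, 0.101 and -0.013 for same-numbered samples, and by -0.147 to 0.121 for the others. With 3 arrays per group these values cannot decide whether samples pair. The replicate block called 0 of 13 immediate early probe sets, as the main fit did. The number of arrays and the background limit what Fosb and Atf3 can show.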
